A study of Arabidopsis thaliana with 72 samples.

Results

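Roots of phl2 seedlings grown without phosphate (-Pi) were set against roots of the wild type Col-0 (Col) grown in the same way, with 3 RNA sequencing libraries in each group. The phl2 plants are mutants of PHL2, a relative of the transcription factor PHR1. Because the groups also differ in how library values depend on gene length, the account keeps to genes that differed from a second group too, the -Pi roots labelled phl3, which is a mutant of another relative of PHR1. Calls required a log2 fold change of 1 or more in either direction with an adjusted p below 0.05, and a gene was kept when phl2 was called higher, or lower, against both groups. Of 21206 genes tested, 22 were kept (0.104%), of which 18 were higher (0.0849%) and 4 were lower (0.0189%) in phl2.

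The series holds 72 libraries, 3 for each of 12 genotypes on medium without or with phosphate (+Pi), all from roots of seedlings 8 days old. Besides the -Pi groups phl2, phl3 and Col, the text uses the same 3 genotypes under +Pi, the double mutants phr1phl2, phr1phl1 and phr1phl3, the triple mutant phr1phl1phl2 and the single mutant phr1. Single levels or ranks are also given from the groups labelled phl1, phl4, phr1phl4 and phr1phl1phl2phl3, each with 3 libraries per medium. The labels name genotypes only and give no allele or insertion line, so how far a line still makes its transcript can be read only from the values. All media held sucrose and were set with agar or agarose, and no label says which of the gelling agents a given library had. Replicates are called biological in the study's design, but the labels do not tie them to separate plates or growths, and the spread that the p-values measure may therefore be technical.

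PHR1 and its relatives PHL1 to PHL4 are MYB-type transcription factors that bind the P1BS element in the promoters of genes that respond to phosphate starvation. When phosphate is scarce, SPX proteins release PHR1, and its targets include phosphate transporters, phosphatases, non-coding RNAs of the IPS1 family and enzymes that replace phospholipids. Phosphate-starved plants are also known to make more anthocyanins and other flavonoids, which are built from phenylalanine through chalcone synthase (CHS), chalcone isomerase (CHI), flavanone 3-hydroxylase (F3H) and, for flavonols, flavonol synthase 1 (FLS1).

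Depth was estimated from the steps between low values at 25.1 to 26.1 M reads in the phl2 -Pi libraries, 24 to 40.2 M in those labelled phl3 and 21.4 to 26.4 M in Col, against 11 to 40.2 M over all 72. The slope of log2 RPKM (reads scaled to gene length and depth) on log2 gene length, relative to the mean library, was -0.40 to -0.34 in phl2 -Pi, -0.40 to -0.25 in the libraries labelled phl3 -Pi and -0.05 to 0.04 in Col -Pi. All 21 root cell type markers were above 0 in every library of the 3 groups, and their summed level was 670 to 694 RPKM in phl2, 730 to 775 RPKM in the libraries labelled phl3 and 744 to 789 RPKM in Col. PHL3 was not lower in the libraries labelled phl3, at 15.2 ± 0.946 RPKM, than in phl2 at 12.1 ± 0.276 RPKM or Col at 5.45 ± 0.0375 RPKM (SD, n = 3 each), so those libraries are named by their label throughout. The same holds for the libraries labelled phr1phl1phl2phl3 -Pi, with 10, 16.4 and 10.9 RPKM of PHL3, against 12, 13.3 and 11.6 RPKM in phr1phl1phl2 -Pi. The libraries labelled phr1phl3 -Pi had 3.87, 3.68 and 2.9 RPKM of it. Col -Pi differed from phl2 and the phl3-labelled group in length slope, and the part of that in its lower PHL3 value was not tested. In a bulk sample, fewer cells of a type and less RNA per cell cannot be told apart.

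Against Col under -Pi, 2269 genes were higher in phl2 (10.7%) and 941 were lower (4.44%), and the median gene length was 993 bases in those called higher and 1552 bases in those called lower, beside 1728 bases over all genes tested. Against the libraries labelled phl3, 32 genes were called (0.151%), of which 22 were higher (0.104%) and 10 were lower (0.0472%); against Col 15.1% were called in either direction. Of the genes called against Col 70.7% were higher, and 56.6% after correction for length and base content. Of the genes called higher than Col, 95.6% lay within 0.5 on the log2 scale against the phl3-labelled libraries, and of those called lower 92.3% did. PRR9, a clock gene, was called in both comparisons in opposite directions and was not kept. Both comparisons share the 3 phl2 libraries and both chose the kept genes, so the values they give for these genes are a description and no test.

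**Figure D1:**
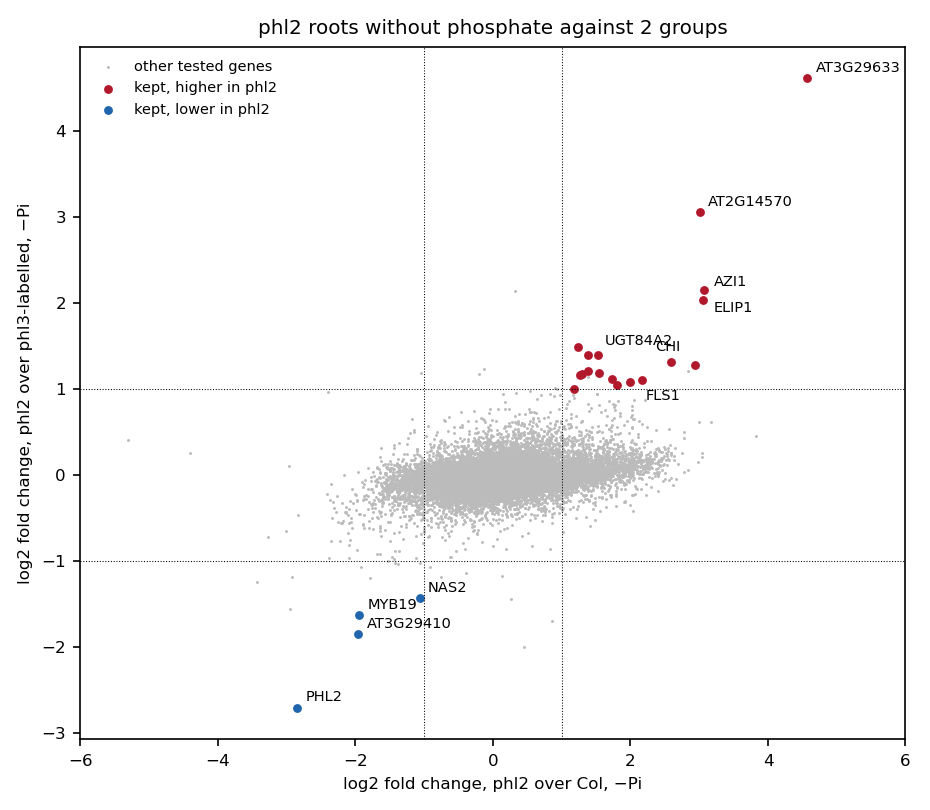
Each point is 1 of 21206 tested genes, with the log2 fold change of phl2 over Col under -Pi on the x axis and of phl2 over the libraries labelled phl3 under -Pi on the y axis; dotted lines stand at 1 and -1. Most genes spread along the x axis at a y value near 0, and the 22 kept genes lie in the corners, from AT3G29633 at 4.57 and 4.61 to PHL2 at -2.85 and -2.71.

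The gene named by the mutation had the largest fold change among the 4 lower genes. PHL2 (AT3G24120) had 4.38, 4.06 and 3.3 RPKM in the phl2 -Pi libraries, against 30, 31.6 and 31.3 RPKM in those labelled phl3 and 31.4, 36.5 and 35.1 RPKM in Col. The phl2 values lie far below the others with no overlap, and transcript was still detected in each phl2 library. Its log2 fold change, computed like all those given here on log2(RPKM + 1), which understates the change of low genes, was -2.85 against Col and -2.71 against the libraries labelled phl3. In libraries that did not enter the rule, PHL2 fell in all 7 comparisons of a genotype with phl2 in its label against one without it. By limma with Benjamini-Hochberg adjustment, the log2 fold change was -2.94 ± 0.16 (SE) in phl2 against Col under +Pi (adjusted p = 6.36e-21). It was -3.51 ± 0.16 in phr1phl2 against phr1 under -Pi (adjusted p = 2.13e-24) and -2.91 ± 0.16 in phr1phl1phl2 against phr1phl1 under -Pi (adjusted p = 2.87e-20).

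AT3G29410, annotated in the terpenoid cyclase family, which makes terpene skeletons, came next among the 4 lower genes. It had 1.47, 1.14 and 1.34 RPKM in phl2 -Pi, against 7.61, 7.2 and 7.29 RPKM in the libraries labelled phl3 and 7.99, 7.87 and 8.09 RPKM in Col, so that every phl2 library lay below every other. In the phr1 background it fell too, with 0.978, 0.758 and 1.1 RPKM in phr1phl2 -Pi against 6.32, 6.31 and 6.03 RPKM in phr1 -Pi (-1.90 ± 0.12, adjusted p = 1.09e-18 by limma). It also fell in phr1phl1phl2 against phr1phl1 under -Pi (-1.50 ± 0.12, adjusted p = 4.21e-14 by limma) and in phr1phl2 against phr1 under +Pi (-1.28 ± 0.12, adjusted p = 2.68e-12 by limma). In phl2 against Col under +Pi the difference was -0.67 ± 0.12 (adjusted p = 2.12e-05 by limma), under the fold required for a call. Across the 12 genotypes under -Pi its mean ran from 0.0854 RPKM in the libraries labelled phr1phl1phl2phl3 to 9.86 RPKM in phl1, and phl2 was in position 9 from the top.

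MYB19, a transcription factor of the MYB family, had 1.58, 1.74 and 1.91 RPKM in phl2 -Pi, against 6.84, 8.01 and 7.6 RPKM in the libraries labelled phl3 and 10.2, 9.75 and 8.71 RPKM in Col. Again no phl2 library reached the lowest of the other groups. It fell in phr1phl2 against phr1 under -Pi (-1.49 ± 0.18, adjusted p = 4.23e-09 by limma) and under +Pi (-1.42 ± 0.18, adjusted p = 2e-08 by limma). In phr1phl1phl2 against phr1phl1 under -Pi the difference of -0.95 ± 0.18 (adjusted p = 0.000647 by limma) was just under the fold required.

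NAS2 encodes a nicotianamine synthase, which makes the chelator nicotianamine that carries iron and other metals, and it was the weakest of the 4. It had 3.37, 3.46 and 2.51 RPKM in phl2 -Pi, against 9.77, 10.3 and 9.97 RPKM in the libraries labelled phl3 and 7.1, 7.15 and 8.51 RPKM in Col. With Col replicate 3 or phl2 replicate 3 left out, its fold change against Col no longer reached the threshold, and the smallest of these values was -0.95. It fell in phr1phl2 against phr1 under -Pi, with 1.71, 1.82 and 1.58 RPKM in phr1phl2 and 6.87, 6.38 and 7.11 RPKM in phr1 (-1.53 ± 0.16, adjusted p = 6.19e-11 by limma). Under +Pi it was higher in the triple mutant, at 8.75 ± 1.47 RPKM, than in phr1phl1 at 3.09 ± 0.31 RPKM (SD, n = 3 each; log2 1.24 ± 0.16, adjusted p = 1.23e-07 by limma). In that comparison 19 of 27 shoot photosynthesis genes were also called higher (0.292% of all genes). Their summed level was 953 to 1518 RPKM in the triple mutant and 297 to 386 RPKM in phr1phl1, and their part in the NAS2 value was not tested. Among 30 tested genes of iron uptake and transport, NAS2 was the 1 called in phl2 against the phl3-labelled libraries, where 0.0472% of all genes were called lower. Since NAS2 is a kept gene, nothing is read from that count.

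**Figure D2:**
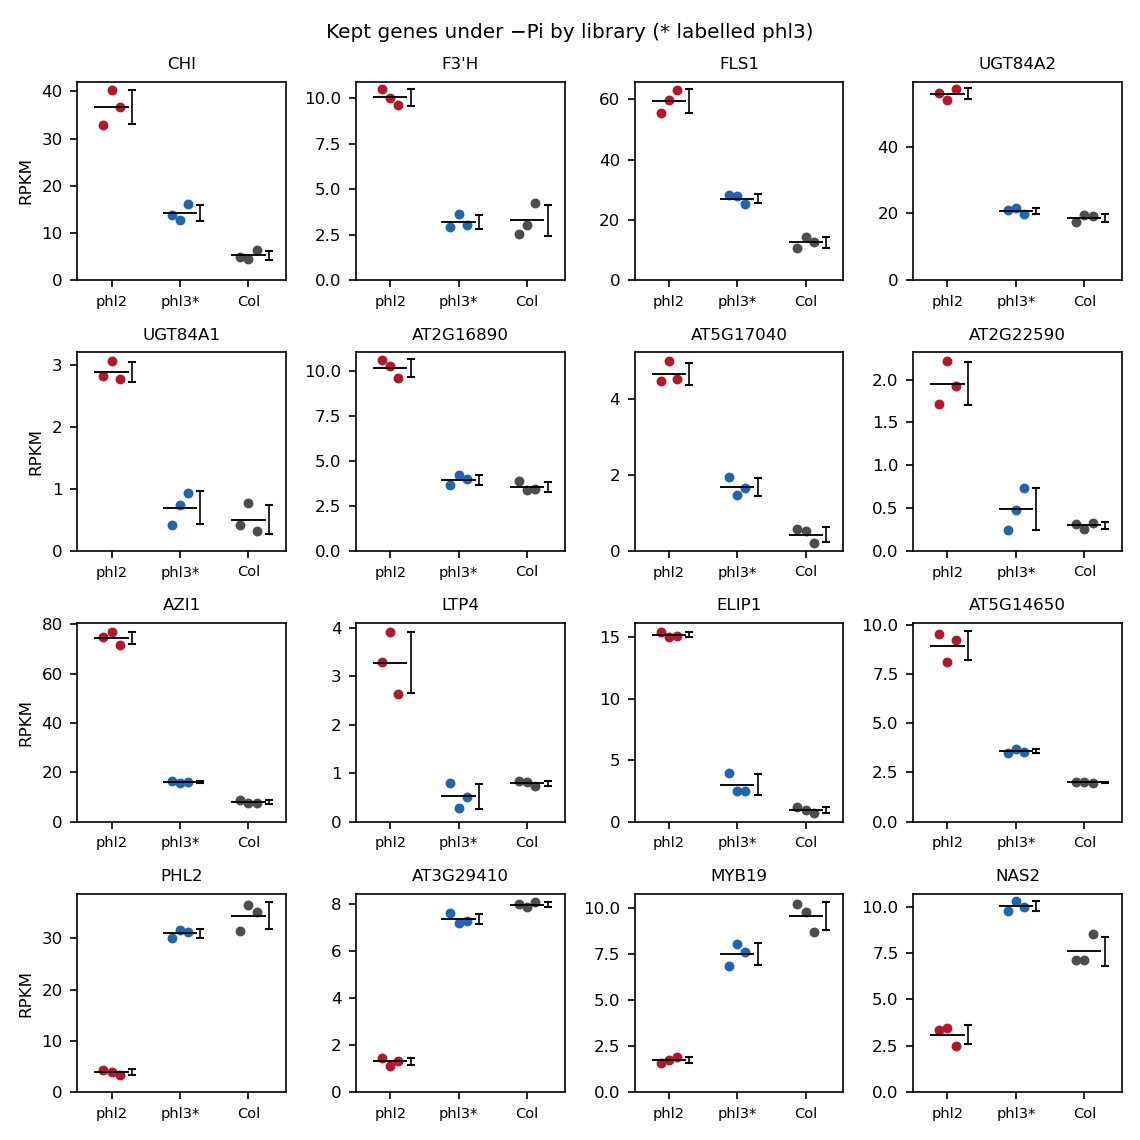
RPKM of 16 kept genes in the -Pi libraries of phl2, of the group labelled phl3 (phl3*) and of Col; points are libraries, the horizontal line is the mean of 3 and the bar beside it its SD. In each panel the 3 phl2 points stand apart from both other groups, above them in the upper rows and below them in the bottom row. The genes were chosen on these same libraries.

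Among the 18 genes that were higher in phl2, 3 belong to flavonol synthesis. CHI (AT3G55120), which closes the ring of the first flavanone, had 33, 40.3 and 36.7 RPKM in phl2 -Pi, against 13.8, 12.7 and 16.1 RPKM in the libraries labelled phl3 and 4.93, 4.5 and 6.37 RPKM in Col. FLS1 (AT5G08640), which makes flavonols from dihydroflavonols, had 55.4, 59.7 and 63.1 RPKM in phl2, against 28.1, 27.8 and 25.3 RPKM in the libraries labelled phl3 and 10.7, 14.4 and 12.5 RPKM in Col. For both genes the phl3-labelled libraries lay between the other groups, with no overlap on either side. F3'H (AT5G07990), which adds a hydroxyl group to the B ring, had 10.5, 10 and 9.59 RPKM in phl2, against 2.91, 3.63 and 3.05 RPKM in the libraries labelled phl3 and 2.56, 3.03 and 4.24 RPKM in Col. Here both comparison groups overlapped.

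Other enzymes of the pathway were close to the threshold. Of 15 listed flavonoid genes 9 were tested, and against Col 7 of them were called higher (10.7% of all genes; median log2 fold change 1.51, beside -0.01 over all genes tested). Against the phl3-labelled libraries the 3 kept genes were called (0.104% of all genes were called higher; median 0.94, beside -0.02). CHS, which starts the pathway, had 249, 261 and 246 RPKM in phl2 -Pi, against 126, 136 and 130 RPKM in the libraries labelled phl3 and 129, 147 and 150 RPKM in Col, which is a log2 fold change of 0.94 against the phl3-labelled libraries and 0.82 against Col. F3H had 52.3 ± 0.463 RPKM in phl2, 26.8 ± 1.45 RPKM in the phl3-labelled libraries and 17.8 ± 0.747 RPKM in Col (SD, n = 3 each), and at log2 1.51 against Col and 0.94 against phl3 it was one of the genes just outside the threshold. MYB12, the transcription factor that activates flavonol genes in roots, had 9.84, 11.3 and 9.2 RPKM in phl2, 5.79, 5.92 and 5 RPKM in the phl3-labelled libraries and 1.76, 1.5 and 1.91 RPKM in Col. DFR and LDOX, which lead on to anthocyanins, averaged at most 0.022 RPKM in these groups and were not tested.

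UDP-glycosyltransferases, which attach sugars to small molecules, made up 5 of the 18 higher genes. All 5 are annotated as UDP-Glycosyltransferase superfamily protein, a product name carried by 69 of 21007 annotated genes tested (0.328%). Genes of the family annotated under other product names are not in that share, which may therefore be too low for the family. UGT84A2 (AT3G21560), which attaches glucose to sinapate, had 56.2, 54 and 57.3 RPKM in phl2 -Pi, against 21, 21.5 and 19.8 RPKM in the libraries labelled phl3 and 17.3, 19.5 and 19.2 RPKM in Col. UGT84A1 (AT4G15480), a related enzyme with hydroxycinnamates as substrates, had 2.83, 3.07 and 2.77 RPKM in phl2, against 0.411, 0.747 and 0.942 RPKM in the phl3-labelled libraries and 0.416, 0.772 and 0.324 RPKM in Col. In both cases phl2 stood clear of groups that overlapped or nearly met. UGT84A1 overlaps AT4G15475 on the opposite strand, and since the strand setting of the counting is not given in the sources used here, reads of the 2 genes cannot be told apart. AT4G15475 itself had 12.2 RPKM in phl2, 11.9 RPKM in the phl3-labelled libraries and 9.16 RPKM in Col. The other 3 are known here by locus only. AT2G16890 averaged 10.2 ± 0.529 RPKM in phl2, 3.96 ± 0.268 RPKM in the phl3-labelled group and 3.57 ± 0.288 RPKM in Col. AT5G17040 averaged 4.67 ± 0.286, 1.69 ± 0.237 and 0.433 ± 0.207 RPKM in the same order of groups, and AT2G22590 averaged 1.95 ± 0.252, 0.486 ± 0.246 and 0.299 ± 0.0433 RPKM (SD, n = 3 each).

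UGT84A2 and F3'H were also the kept genes with a P1BS element close to the gene start. P1BS was searched as GNATATNC, which reads the same on both strands, in the 250 bases before the annotated start of each gene in the RefSeq annotation of TAIR10.1, matched by locus. It was found in 2 of the 18 higher genes and 0 of the 4 lower genes, beside 1177 of 21007 annotated genes tested (5.6%) and 5.27% of all annotated genes. The UGT84A2 window lies at chr3:7595430-7595679 and the F3'H window at chr5:2560078-2560327, both on the plus strand, and the element starts 215 and 213 bases before the gene. Both are shown 5′ to 3′, with the element in capitals, so that its place and its flanks can be compared.
UGT84A2: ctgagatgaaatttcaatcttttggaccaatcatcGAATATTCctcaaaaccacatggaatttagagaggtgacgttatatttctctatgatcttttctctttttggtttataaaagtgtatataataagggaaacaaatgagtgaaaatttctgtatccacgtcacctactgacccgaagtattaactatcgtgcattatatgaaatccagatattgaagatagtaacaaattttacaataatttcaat
F3'H: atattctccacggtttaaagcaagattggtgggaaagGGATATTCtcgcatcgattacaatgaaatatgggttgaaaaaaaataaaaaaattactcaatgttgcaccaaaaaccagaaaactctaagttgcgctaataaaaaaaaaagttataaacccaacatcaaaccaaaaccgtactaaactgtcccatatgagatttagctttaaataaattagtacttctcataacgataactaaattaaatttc

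AZI1 (AT4G12470), a lipid-transfer-like protein known from systemic immunity, had 74.8, 76.8 and 71.7 RPKM in phl2 -Pi, against 16.4, 15.7 and 16 RPKM in the libraries labelled phl3 and 8.84, 7.6 and 7.65 RPKM in Col. LTP4 (AT5G59310), a lipid transfer protein, had 3.28, 3.91 and 2.64 RPKM in phl2, against 0.789, 0.274 and 0.513 RPKM in the phl3-labelled libraries and 0.835, 0.814 and 0.735 RPKM in Col. Both have close paralogs, so the authors' counting could have split or shared reads between copies. AT2G36255, annotated as defensin-like, had 7.01, 6.95 and 8.41 RPKM in phl2, against 2.42, 2.26 and 2.83 RPKM in the phl3-labelled libraries and 0.313, 0 and 0 RPKM in Col. AZI1 was not at its highest in phl2, which was in position 7 of 12 genotypes under -Pi, below phr1phl4 at 614 ± 32.9 RPKM (SD, n = 3).

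ELIP1 (AT3G22840), an early light-induced protein that binds chlorophyll and protects against strong light, had 15.4, 15 and 15.1 RPKM in phl2 -Pi, against 3.98, 2.51 and 2.52 RPKM in the libraries labelled phl3 and 1.19, 0.919 and 0.733 RPKM in Col. In no other genotype under -Pi was its mean as high. The summed level of 27 shoot photosynthesis genes was also higher in phl2, at 49.3 to 54.7 RPKM in phl2, 33.4 to 37.8 RPKM in the phl3-labelled libraries and 36.9 to 38.3 RPKM in Col. Of those 27 genes, 21 were above 0 in all 3 phl2 libraries, while RBCS3B and LHCB2.1 were at 0 in all 3. None of the 27 was called against the phl3-labelled libraries by limma, where 0.151% of all genes were called, so that this is near the background. At an unadjusted p under 0.05, 3 were higher. The part of shoot RNA in the ELIP1 values was not tested.

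The remaining higher genes with an annotation were AT5G14650, AT5G38940, AT5G52390 and AT3G56290. AT5G14650, of the pectin lyase-like family, had 9.51, 8.08 and 9.23 RPKM in phl2 -Pi, against 3.5, 3.69 and 3.54 RPKM in the libraries labelled phl3 and 2.01, 2.01 and 1.97 RPKM in Col. It overlaps PDF1B on the opposite strand, which had 2.65, 2.62 and 1.67 RPKM on average in the 3 groups. AT5G38940, of the RmlC-like cupins, had 10.7 ± 0.347 RPKM in phl2, 4.67 ± 0.463 RPKM in the phl3-labelled libraries and 2.37 ± 0.0132 RPKM in Col (SD, n = 3 each). AT5G52390, annotated as a PAR1 protein, averaged 4.59 ± 0.426, 1.48 ± 0.268 and 0.94 ± 0.375 RPKM in the same order of groups, and AT3G56290, annotated as a potassium transporter, averaged 3.66 ± 0.685, 1.09 ± 0.318 and 0.926 ± 0.0203 RPKM. In each of the 4 genes the phl2 libraries lay above all libraries of both other groups.

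AT3G29633 and AT2G14570 differ from the other kept genes in their pattern over the series. AT3G29633, with no annotated function, had 50.2, 60.4 and 59.7 RPKM in phl2 -Pi, against 0.432, 2.06 and 2.02 RPKM in the libraries labelled phl3 and 0.783, 1.34 and 2.41 RPKM in Col. It was high on the other medium too, at 52.7, 54 and 64.5 RPKM in phl2 +Pi against 0.439, 0 and 0.471 RPKM in Col +Pi (log2 5.49 ± 0.46, adjusted p = 9.49e-14 by limma). In other genotypes with phl2 in their label it was low, at 0.416 ± 0.499 RPKM in phr1phl2 -Pi and 0.142 ± 0.246 RPKM in the libraries labelled phr1phl1phl2phl3 -Pi (SD, n = 3 each), and it was listed at 0 in all 3 libraries of phr1phl1phl2 -Pi. AT2G14570 had 6.52, 6.58 and 8.98 RPKM in phl2 -Pi and 6.09, 4.56 and 5.44 RPKM in phl2 +Pi, and no library outside phl2 reached 1 RPKM. It therefore passed the filter on low values through phl2 alone and had to differ. It was listed at 0 in all libraries labelled phl3 under -Pi and at 0.0287, 0.0654 and 0 RPKM in Col -Pi. The highest library outside phl2 had 4.66 RPKM of AT3G29633, so that both genes were high in phl2 on both media and in none of the other genotypes with phl2 in their label.

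**Figure D3:**
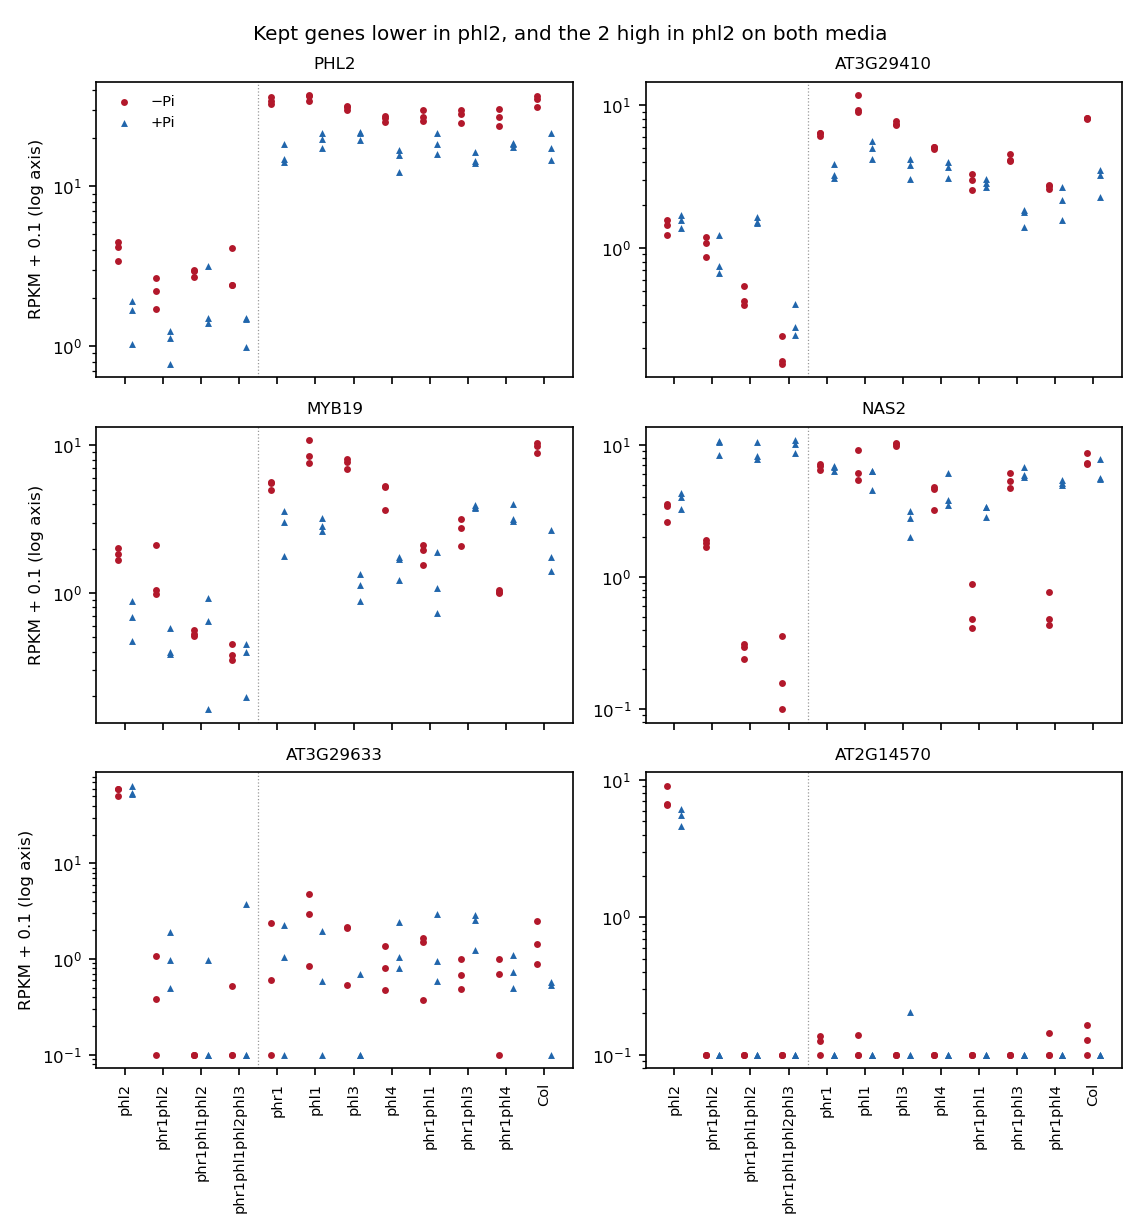
RPKM + 0.1 on a log axis in all 72 libraries for the 4 kept genes lower in phl2 and for AT3G29633 and AT2G14570; circles are -Pi and triangles +Pi libraries, and genotypes left of the dotted line have phl2 in their label. PHL2 is low in all 4 of them, whereas AT3G29633 (50.2 to 64.5 RPKM) and AT2G14570 (4.56 to 8.98 RPKM) are high in phl2 alone.

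Some members lay close to the threshold. On the smaller of the 2 fold changes, AT2G22590 (log2 1.18 against Col and 1.00 against the phl3-labelled libraries) and AT5G38940 (1.80 and 1.05) were just inside, and CYP718, a cytochrome P450 (-1.43 and -0.98), and F3H (1.51 and 0.94) were just outside. With any 1 library left out, between 18 and 23 genes were kept. AT2G36255, AT5G17040 and AT5G38940 lost their call against the phl3-labelled libraries with a pseudocount of 0.1 and when single libraries of these groups were left out (5 of the 6 for AT5G17040 and each of the 6 for the others), with adjusted p up to 0.865, 0.593 and 0.158 by limma. LTP4 and AT3G56290 lost theirs against Col after correction for length and base content (log2 0.85 and 0.83) and with a term for library class (0.91 and 0.78). Against the phl3-labelled libraries, AT2G22590 lost its call after that correction and without phl2 replicate 2 or phl3 replicate 1, with log2 down to 0.88. There AT5G52390 and AT5G14650 lost theirs with a pseudocount of 0.1 (adjusted p up to 0.132 and 0.0526 by limma). AT3G56290 lost it without phl3 replicate 2 (adjusted p up to 0.0538 by limma). Loss of a single library did not end the call of CHI, FLS1, F3'H, UGT84A2, UGT84A1, AZI1, ELIP1, PHL2, AT3G29410 or MYB19 in either comparison.

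Libraries grown with phosphate did not enter the rule. They did enter the filter on low values, which AT2G14570 passed through phl2 libraries alone, so its calls here are no independent result. In phl2 against the libraries labelled phl3 under +Pi, 2 of the 18 higher genes were called higher (0.203% of all genes), namely AT3G29633 and AT2G14570, and 1 of the 4 lower genes was called lower (0.0566%), which was PHL2. Without phl3 +Pi replicate 3 that last count was 2, and over the comparison as a whole between 17 and 133 genes were called when 1 library was left out, where 55 were called with all. The balance of these calls was not stable either, with 43 higher and 12 lower in all. There were 10 higher and 18 lower in a fit of the compared groups alone, 6 higher and 14 lower without phl3 +Pi replicate 3 and 8 higher and 9 lower without phl3 +Pi replicate 2. The median log2 fold change of the 18 genes, of which 5 were higher at an unadjusted p under 0.05, was 0.07, beside 0.01 over all genes tested. CHI had 4.15, 4.84 and 4.68 RPKM in phl2 +Pi and 4.08, 4.63 and 4.18 RPKM in the libraries labelled phl3 +Pi, which overlap. The log2 difference was 0.07 ± 0.26 for CHI, -0.01 ± 0.13 for F3'H and 0.31 ± 0.11 (adjusted p = 0.234 by limma) for UGT84A2.

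Against Col under +Pi, 11 of the 18 genes were lower in phl2 (10.1% of all genes were called lower) and 2 were higher (1.22%). These 2 were again AT3G29633 and AT2G14570, and the call of the second is again no independent result. All 9 tested flavonoid genes were called lower (median log2 -2.83, beside -0.12 over all genes). Markers of another tissue were lower with them. Of 27 shoot photosynthesis genes 20 were called lower in phl2 and 0 higher (median -1.27). Their summed level was 316 to 331 RPKM in phl2 +Pi, against 556 to 1144 RPKM in Col +Pi. All 27 were above 0 in every Col +Pi library, while RBCS1B and RBCS2B were at 0 in all 3 of phl2 +Pi. The part of shoot RNA in these differences was not tested. CHI had 4.15, 4.84 and 4.68 RPKM in phl2 +Pi, against 160, 54.1 and 71.6 RPKM in Col +Pi (-3.96 ± 0.26, adjusted p = 1.23e-17 by limma). FLS1 had 8.17, 9.95 and 9.35 RPKM in phl2 +Pi, against 192, 126 and 134 RPKM in Col +Pi (-3.88 ± 0.17, adjusted p = 1.33e-25 by limma). ELIP1 had 0.485, 0.947 and 0.984 RPKM, against 35.2, 9.36 and 10.1 RPKM (-3.17 ± 0.32, adjusted p = 7.41e-11 by limma). Libraries of phl2 lay wholly below Col for 30.9% and wholly above for 21.3% of tested genes. The length slope was 0.42 to 0.43 in phl2 +Pi and -0.40 to 0.03 in Col +Pi, so that the phl2 libraries, which lay below Col on this measure under -Pi, lay above it here. Without Col +Pi replicate 1 the comparison called 1575 genes in all, against 2397 with it. Of all genes called 10.8% were higher in phl2, and with libraries rescaled by their median ratio 23.2% were, and after correction for length and base content 42.3%. For CHI the phl2 mean was thus 36.7 ± 3.67 RPKM under -Pi and 4.55 ± 0.362 RPKM under +Pi. That of Col was 5.27 ± 0.979 RPKM under -Pi and 95.2 ± 56.7 RPKM under +Pi (SD, n = 3 each).

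**Figure D4:**
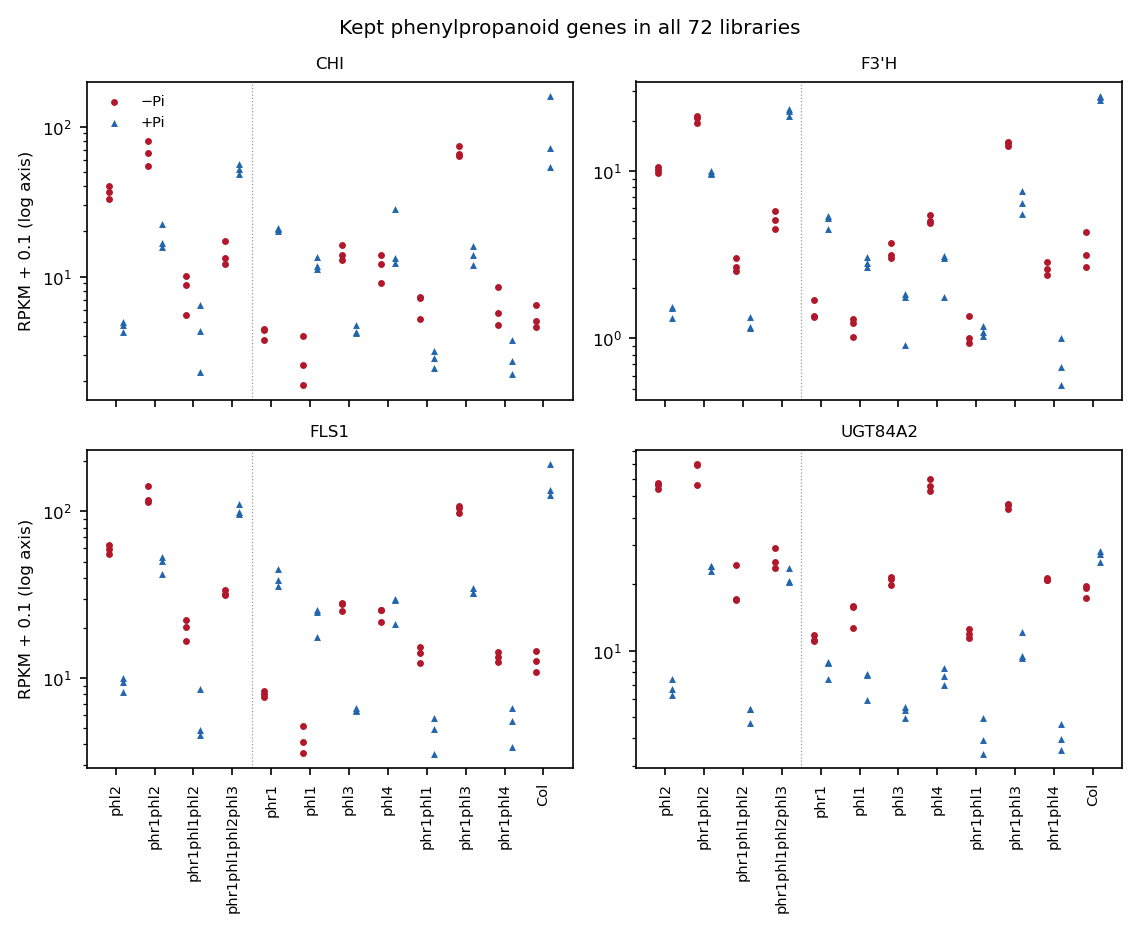
RPKM + 0.1 on a log axis of CHI, F3'H, FLS1 and UGT84A2 in all 72 libraries; circles are -Pi and triangles +Pi libraries, and genotypes left of the dotted line have phl2 in their label. Under -Pi the phr1phl2, phr1phl3 and phl2 libraries are among the highest, and under +Pi the Col libraries are, with CHI at 54.1 to 160 RPKM.

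A mutation of PHL2 was also labelled in the phr1 background, and whether it is the allele of the phl2 line is not given. In phr1phl2 against phr1 under -Pi, 13 of the 18 higher genes were called higher (3.98% of all genes) and all 4 lower genes were called lower (2.87%), with medians of 2.03 and -1.71 beside 0.08 over all genes tested. Of all genes called here 58.1% were higher, but 40.5% were after correction for length and base content and 42.7% with libraries rescaled by their median ratio. F3'H had 19.4, 21.3 and 20.7 RPKM in phr1phl2, against 1.24, 1.59 and 1.27 RPKM in phr1 (3.18 ± 0.13, adjusted p = 1.68e-26 by limma). UGT84A2 had 56.5, 70 and 69.7 RPKM in phr1phl2, against 11.7, 10.9 and 11.1 RPKM in phr1 (2.44 ± 0.11, adjusted p = 8.26e-24 by limma). Each of the 9 tested flavonoid genes rose, with a median of 2.95. In the same comparison 10 of the 27 shoot photosynthesis genes were called higher and 0 lower (median 0.75). All 27 were above 0 in every library, with a summed level of 130 to 286 RPKM in phr1phl2 -Pi, against 81.7 to 91.2 RPKM in phr1 -Pi. Their part in the rise was not tested. The 5 higher genes with no call were AT3G29633, AT2G14570, LTP4, AT5G52390 and AT5G14650. Under every alternative run, 13 or 14 of the 18 and 4 of the 4 were called, although the number of all genes called ran from 474 with a term for library class to 2407 without phr1phl2 -Pi replicate 1.

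A comparison chosen after the data were seen set phr1phl2 -Pi against phr1phl3 -Pi. Length slopes were -0.26 to -0.15 in phr1phl2, -0.34 to -0.29 in phr1phl3 and -0.09 to -0.08 in phr1 -Pi, with no overlap. Of the 3 library classes, set by slopes on length and base content, phr1phl2 replicates 2 and 3 were in that of phr1phl3. Replicate 1 was in that of phr1, so the comparison is only partly matched on library class. There 0 of the 18 higher genes were called higher by limma (0.0189% of all genes), while 6 were higher and 1 was lower at an unadjusted p under 0.05. Without the fold required, UGT84A2 and AT2G22590 were higher at the adjusted p, the second at 9.43, 9.83 and 9.06 RPKM in phr1phl2, against 6.19, 6.03 and 4.85 RPKM in phr1phl3 (0.65 ± 0.12, adjusted p = 0.000947 by limma). LTP4 passed the adjusted p in the other direction, lower in phr1phl2 (-0.67 ± 0.16, adjusted p = 0.0285 by limma). CHI had 54.5, 66.2 and 79.6 RPKM in phr1phl2 and 74.5, 63.4 and 65.7 RPKM in phr1phl3, which overlap, and the median of the 9 flavonoid genes was 0.21. Of the 4 lower genes 3 were called lower (0.108%): PHL2 (-3.22 ± 0.16, adjusted p = 2.2e-22), AT3G29410 (-1.41 ± 0.12, adjusted p = 7.02e-13) and NAS2 (-1.21 ± 0.16, adjusted p = 4.33e-07 by limma). Both of these comparisons share the phr1phl2 libraries.

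A further comparison adds phl2, by label, in the phr1phl1 background. In phr1phl1phl2 against phr1phl1 under -Pi, 1 of the 18 genes was called higher (0.0613%), AT2G36255 at 7.32 ± 3.5 RPKM in the triple mutant and 1.16 ± 0.632 RPKM in phr1phl1 (SD, n = 3 each; log2 1.90 ± 0.32, adjusted p = 9.52e-05 by limma), and that call was lost in a fit of the compared groups alone. PHL2 and AT3G29410 were called lower (2 of 4, 0.0943%), and the median of the 4 was -1.22. Of all genes called 39.4% were higher, 25% after correction for length and base content and 58% without phr1phl1phl2 -Pi replicate 1. F3'H and UGT84A2, at 0.87 ± 0.13 (adjusted p = 8.76e-06 by limma) and 0.65 ± 0.11 (adjusted p = 0.00022 by limma), passed the p threshold without reaching the fold. So did AT2G16890, at 0.61 ± 0.11 (adjusted p = 0.000483 by limma). With phosphate, 5 of the 18 genes were called higher in phr1phl2 against phr1 (0.509%), namely ELIP1, UGT84A2, UGT84A1, AT2G16890 and AT2G22590, and 3 of the 4 were called lower (4.43%), where 10.3% of all calls were higher and 23.2% after that correction. In phr1phl1phl2 against phr1phl1 under +Pi, 0 of the 18 were called higher by limma (0.292%), with 2 higher at an unadjusted p under 0.05, while of the 4 lower genes 1, PHL2, was called lower (0.0283%) and NAS2 was called higher.

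**Figure D5:**
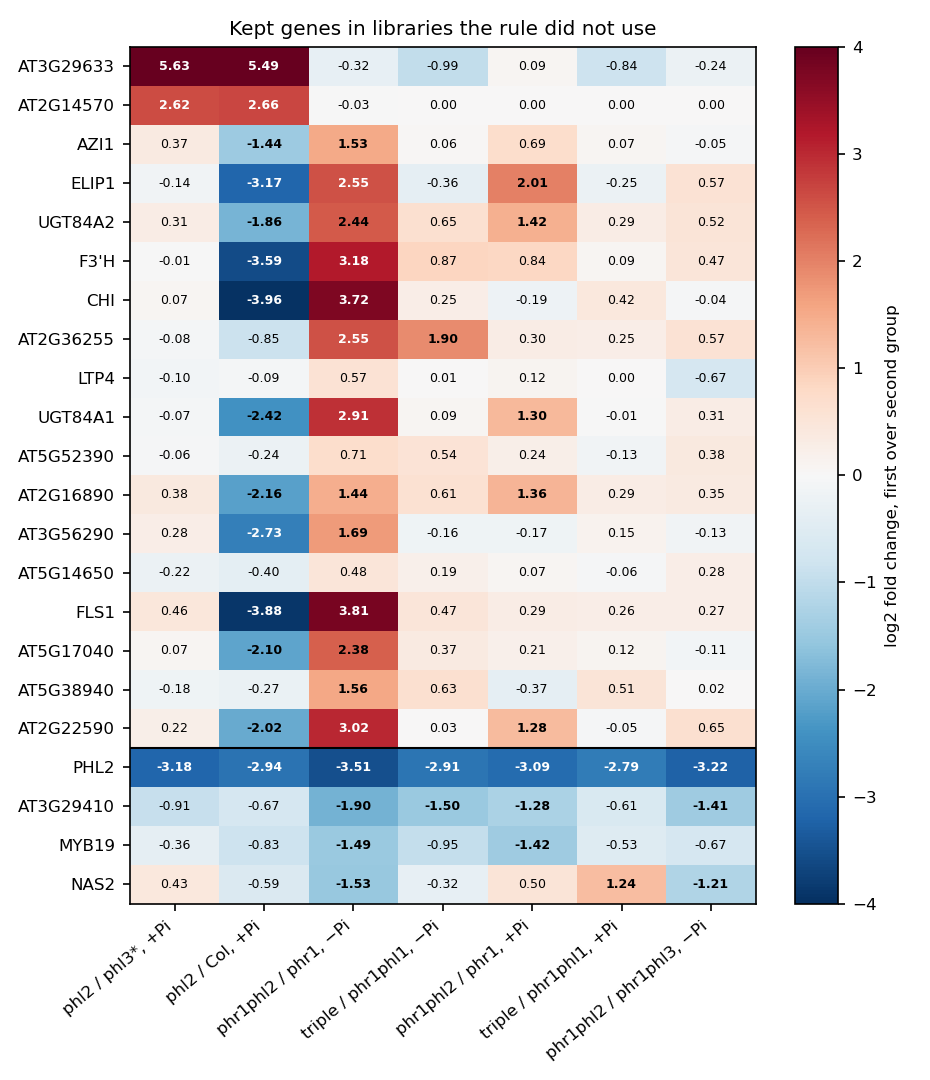
Log2 fold change of the 22 kept genes (rows) in 7 comparisons (columns) whose libraries did not enter the rule, first over second group; bold values were called, AT2G14570 was listed at 0 in Col +Pi so that its fitted value there is no fold, triple is phr1phl1phl2 and phl3* is the group labelled phl3. The rows above the line are the 18 genes higher in phl2 and those below are the 4 lower ones; PHL2 is negative in all 7 columns, between -3.51 and -2.79, and the flavonoid genes are positive in the phr1phl2 against phr1 column under -Pi and negative in the phl2 against Col column under +Pi.

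The 4 lists of phosphate starvation genes are set here beside the share of all genes called. Against the phl3-labelled libraries, 0 of 13 tested genes of phosphate signalling, 0 of 15 of phosphate transport, 0 of 18 phosphatases and nucleases and 0 of 18 of lipid remodelling were called by limma. Of all genes tested 0.151% were called, so that counts of 0 are near the background. At an unadjusted p under 0.05 there were 1, 4, 2 and 1 genes higher in these lists and 0, 1, 1 and 0 lower. Against Col, 4 of the signalling genes were called lower (median log2 -0.77; 4.44% of all genes) and 4 of the phosphatases and nucleases higher (median 0.32; 10.7% of all genes). SPX1, a phosphate sensor that binds PHR1, had 1029 ± 12.5 RPKM in phl2, 1116 ± 46.8 RPKM in the phl3-labelled libraries and 775 ± 50.1 RPKM in Col. IPS1, a non-coding RNA that sequesters miR399, had 853 ± 19, 790 ± 83.8 and 2062 ± 303 RPKM in the same order (SD, n = 3 each), a log2 fold change of 0.12 ± 0.31 against phl3 and -1.26 against Col. PECP1, a phosphatase induced by phosphate starvation, had 626 ± 10.5, 591 ± 0.698 and 284 ± 23.8 RPKM (0.08 ± 0.21 against phl3 and 1.14 against Col). The microRNA precursor gene MIR827 had 5.2 RPKM in phl2, 6.83 RPKM in the phl3-labelled libraries and 19.8 RPKM in Col on average, a log2 fold change of -0.34 against phl3 and -1.71 against Col. MIR399D had 31, 24.8 and 91.1 RPKM (0.31 and -1.44). Of the transporters, PHT1;9 had 13.9 RPKM in phl2, 13.5 RPKM in the phl3-labelled libraries and 21.4 RPKM in Col. PHO1;H1 had 59.1, 71 and 101 RPKM. NPC4, a phospholipase C that breaks down phospholipids, had 143, 141 and 211 RPKM. PAH2, a phosphatidate phosphatase, had 29.1, 30.7 and 51.7 RPKM. For these genes phl2 and the phl3-labelled libraries lay close to each other and apart from Col.

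In the sulfate, jasmonate, immune, nitrate, root hair, low oxygen, and heat and endoplasmic reticulum stress lists, which held 17, 21, 14, 13, 14, 10 and 11 tested genes, none was called against the phl3-labelled libraries by limma. That too is near the background of 0.151%. At an unadjusted p under 0.05 each list had between 0 and 3 genes higher and between 0 and 2 lower. Against Col each had between 1 and 4 called higher (10.7% of all genes) and between 0 and 2 called lower (4.44%). PDF2.1, a defensin, had 70.8 ± 5.88 RPKM in phl2, 51.5 ± 5.67 RPKM in the phl3-labelled libraries and 4.2 ± 1.53 RPKM in Col. The repressor JAZ1 had 126 ± 3.09, 111 ± 14 and 42.1 ± 2.82 RPKM in the same order (SD, n = 3 each). LSU1, a marker of sulfur deficiency, had 51.9, 33.7 and 10.8 RPKM, the nitrate transport partner NRT3.1 had 39.9, 32.4 and 11.2 RPKM, the root hair regulator CPC had 18, 17.1 and 5.91 RPKM, the haemoglobin PGB1 had 16.9, 18.3 and 6.4 RPKM, and the clock gene ELF4 had 138, 119 and 32.2 RPKM, again in phl2, the phl3-labelled libraries and Col. Of the clock genes 1 of 13 was called against phl3, PRR9, at 3.14 ± 0.425 RPKM in phl2, 0.834 ± 0.217 RPKM in the phl3-labelled libraries and 7.53 ± 0.613 RPKM in Col. Of the 13, 2 were called higher and 4 lower against Col. Other genes named from these lists were lower than Col. WER had 20.6, 22.3 and 23.8 RPKM in phl2 and 48.7, 37.6 and 38 RPKM in Col. LBD41 had 4.67, 4.53 and 4.95 RPKM against 7.78, 8.17 and 8.71 RPKM, and HSP70-4 had 22.9, 22.4 and 23.2 RPKM against 33.6, 38.2 and 40.2 RPKM. LSU2, JAZ6, PDF2.2, HHO1, SDF2 and JMJD5 were higher than Col. Median log2 fold changes of these lists against Col ran from -0.15 to 0.26. Within the PHR1 family, PHR1 had 23 ± 0.44 RPKM in phl2, 24.5 ± 1.14 RPKM in the phl3-labelled libraries and 18.9 ± 1.35 RPKM in Col. PHL1 had 7.78 ± 0.376, 9.58 ± 0.363 and 6.09 ± 0.153 RPKM in the same order of groups, and PHL4 had 3.44 ± 0.217, 3.59 ± 0.269 and 7.29 ± 0.246 RPKM.

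Position and length of the kept genes were not themselves criteria of the rule. On chromosomes 1 to 5 there were 0, 4, 7, 2 and 9 of the 22, where 26.2%, 15.3%, 19.5%, 15.1% and 23% of tested genes lie. On chromosome 3 the 250-base window before PHL2 begins at 8708337. Those of UGT84A2, ELIP1, AT3G29410 and AT3G29633 begin at 7595430, 8085670, 11305199 and 11453529, and those of CHI and AT3G56290 at 20431598 and 20879784. A part of nearness to PHL2 in their values was not tested. Median length was 1284 bases for the 18 higher genes and 1352 bases for the 4 lower genes, beside 1728 bases over all genes tested. Calls against Col went with length, at a median of 993 bases for genes called higher. Since kept genes had to pass that comparison, their length is not independent of the rule. The phl2 group had the highest mean of 12 genotypes under -Pi for 5 of the 18 higher genes, namely AT3G29633, AT2G14570, ELIP1, AT5G52390 and AT5G14650, and for CHI, F3'H, FLS1, UGT84A2, UGT84A1, AT2G16890, AT5G17040 and AT2G22590 it was in position 3, below phr1phl2 and phr1phl3 or, for UGT84A2, phr1phl2 and phl4. For LTP4 phl2 was in position 2, for AT2G36255 and AT3G56290 in position 4, for AZI1 in position 7 and for AT5G38940 in position 8. Col had the lowest mean of the 12 for AZI1 and AT5G38940, so most genotypes lay above phl2 or Col there. AT5G38940 averaged 52 RPKM in phr1phl4 -Pi. All 22 genes had their 3 phl2 libraries on 1 side of all 3 Col and all 3 phl3-labelled libraries, which against Col holds for 36.2% of tested genes above and 36.5% below, and against the phl3-labelled libraries for 7.28% and 11.7%. This separation follows in large part from the rule, which used these same libraries, so it is a description and no test.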

How the data were processed

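The authors deposited 1 table of RPKM values for 33602 genes, 1 column for each of 72 libraries of root RNA, with 0 columns left over. The submitters' processing notes name the aligner TopHat, the package edgeR and genome build TAIR10; versions, roles and strand are not given in the sources used here. Since these values are not counts, log2(RPKM + 1) was fitted with limma 3.58.1 in R 4.3.3 (trend and robust options, 24 group means over all 72 libraries). The 21206 genes with at least 1 RPKM in 3 or more libraries were tested, and p-values were adjusted by Benjamini-Hochberg over all of them. Tables and figures were made in Python 3.11.15 with pandas 2.3.3, numpy 2.4.6 and matplotlib 3.10.9. The script was tested on simulated data.

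Named genes were the 5 PHR1 family genes, the 12 kept genes of each direction with the largest smaller fold change, those at the threshold, and in each list the kept genes or else the 2 with the largest change against Col. RNS2, LHCA1, PSAD1, PLT1 and BRN2 met this rule but their levels are not described. AT3G56290, AT5G14650, AT5G17040, SPX1, IPS1, CHS, MYB12, PRR9, DFR and LDOX were named after their values were seen. The members, the gene lists and the comparisons were chosen with earlier results of these data known. Depth was read from steps in low values, of which only part lay within 0.05 of a whole read, so no count test was run. Names, lengths and upstream sequence came from the RefSeq annotation of TAIR10.1, matched by locus for 99.1% of tested genes; gene lengths are of exons. Alternatives were a pseudocount of 0.1, no filter, rescaling by median ratios, correction for length and base content, a term for 3 library classes, the compared groups alone, a replicate block and each library left out.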

Additional observations from a re-analysis of the deposited data

Results flagged for a closer look

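Among the kept genes and the tested genes of the flavonoid list, the difference between phl2 and Col turned round with the medium for 18 genes. For these, all 3 phl2 libraries lay above all 3 Col libraries under -Pi and below all 3 under +Pi. The rule had chosen the -Pi side of the kept genes, so for them that side is a description and no test. The log2 fold changes of phl2 over Col, first under -Pi and then under +Pi, were as follows for the kept genes: AZI1 (3.06 and -1.44), ELIP1 (3.06 and -3.17), UGT84A2 (1.53 and -1.86), F3'H (1.39 and -3.59), CHI (2.60 and -3.96), UGT84A1 (1.38 and -2.42), AT2G16890 (1.29 and -2.16), AT3G56290 (1.26 and -2.73), AT5G14650 (1.73 and -0.40), FLS1 (2.16 and -3.88), AT5G17040 (1.99 and -2.10) and AT2G22590 (1.18 and -2.02). For other genes of the flavonoid list they were CHS (0.82 and -1.74), CHIL (2.05 and -3.24), F3H (1.51 and -2.83), UGT78D1 (0.92 and -1.11), UGT78D2 (1.17 and -1.75) and MYB12 (2.03 and -1.95). The share of all tested genes with phl2 wholly above Col under -Pi was 36.2%, and with phl2 wholly below Col under +Pi it was 30.9%. The share that did both was not counted. Named genes outside the kept genes and the flavonoid list turned round too, among them PDF2.1, JAZ1 and NRT3.1, whereas HSP70-4 was lower on both media. NAS2 turned the other way against the libraries labelled phl3, with -1.43 under -Pi and 0.43 under +Pi. The difference between media was not tested for any of these genes. The length slopes of phl2 and Col also changed places between media, at -0.40 to -0.34 in phl2 and -0.05 to 0.04 in Col under -Pi, and 0.42 to 0.43 in phl2 and -0.40 to 0.03 in Col under +Pi, and their part in these values was not tested. Of 27 shoot photosynthesis genes 1 was called higher and 0 lower in phl2 than in Col under -Pi (median log2 0.15), and 0 were called higher and 20 lower under +Pi (median -1.27). Of all genes tested 10.7% were called higher and 4.44% lower under -Pi, and 1.22% and 10.1% under +Pi. Their summed level was 49.3 to 54.7 RPKM in phl2 and 36.9 to 38.3 RPKM in Col under -Pi, and 316 to 331 RPKM in phl2 and 556 to 1144 RPKM in Col under +Pi, and the part of shoot RNA was not tested.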

How the results depend on the processing

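For single genes, followed in phl2 against Col and against phl3 under -Pi, no fold change that was called turned its direction in any alternative run. The balance of calls over all genes turned in 3 comparisons. These were phl2 against phl3 under +Pi (78.2% higher, but 35.7% with the compared groups alone, 47.1% without phl3 +Pi replicate 2 and 30% without replicate 3), phr1phl2 against phr1 under -Pi (58.1%, but 40.5% after length, GC and adenine correction and 42.7% with median ratio rescaling) and phr1phl1phl2 against phr1phl1 under -Pi (39.4%, but 58% without phr1phl1phl2 replicate 1). The kept genes numbered 22 in the main result and with the replicate block, 18 to 23 with 1 library left out, 23 after length, GC and adenine correction (19 shared) and 30 with a pseudocount of 0.1 (17 shared). Replicate numbers did not pair the samples: the correlation of same-numbered phl2 and Col deviations under -Pi was -0.022, 0.041 and 0.07, and with the replicate block 3207 genes were called in phl2 against Col. The comparison of phr1phl2 with phr1phl3 was added after the data were seen. With a term for library class phl2 against Col under -Pi called 222 genes, phl2 against phl3 under +Pi 103, phl2 against Col under +Pi 417, phr1phl2 against phr1 474 under -Pi and 354 under +Pi. Length, GC and adenine correction left 1178 in phl2 against Col under +Pi. With the compared groups alone the counts were 28 in phl2 against phl3 under +Pi, 571 in phr1phl2 against phr1 under +Pi, and 15 in each of phr1phl1phl2 against phr1phl1 under -Pi and under +Pi and phr1phl2 against phr1phl3 under -Pi. A pseudocount of 0.1 gave 119 in phl2 against phl3 under +Pi and 63 under -Pi and 108 under +Pi in phr1phl1phl2 against phr1phl1. With 1 library left out the counts ran from 17 to 133 in phl2 against phl3 under +Pi, 1575 to 3362 in phl2 against Col under +Pi, 888 to 2407 in phr1phl2 against phr1 under -Pi, 591 to 1576 in the same under +Pi, and 27 to 50 in phr1phl1phl2 against phr1phl1 under -Pi. The causes of these shifts were not tested. Low RPKM values rest on few reads, which limits the genes near 1 RPKM most.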

Other observations

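Besides the kept genes, 10 genes were called in phl2 against the libraries labelled phl3 under -Pi. Log2 fold changes against the phl3-labelled libraries and then against Col were 1.01 and 0.90 for 4CL3, a coumarate CoA ligase that supplies flavonoid synthesis, and 1.23 and -0.13 for COL5, a CONSTANS-like protein. PRR9 had 1.18 and -1.04, with phl2 between the other groups. The unnamed AT5G35935 had 2.13 and 0.33. Lower than in the phl3-labelled libraries were AT5G35940, a mannose-binding lectin (-1.44 and 0.26), TBL41 (-1.18 and 0.13), AT2G42660, a homeodomain-like protein (-1.19 and -0.75), and AT5G11330, an oxidoreductase (-1.07 and -0.92). AT4G04223 (-2.00 and 0.45) and AT5G38005 (-1.70 and 0.86), both annotated as other RNA, were also lower. All 10 were named after their values were seen.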
